A study of Homo sapiens with 24 samples.

Results

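The 10 genes described here encode the core of the human heat shock and chaperone system: HSPA1A, HSPA1B and HSPA8 of the HSP70 family, the HSP110 protein HSPH1, HSP90AA1, the J protein DNAJB1, the mitochondrial chaperonin pair HSPD1 and HSPE1, the small heat shock protein HSPB1 and the cochaperone BAG3. They were chosen by symbol, through the GENCODE annotation of the gene IDs, from 54377 genes in the table of gene-body (GB) counts. 21246 genes had enough counts to be tested, and 9 of the 10 genes were among them, HSPA1B being the exception. The data are mNET-seq libraries, which sequence RNA still held by RNA Pol II, from U2OS cells, an osteosarcoma line. Pol II was precipitated with antibodies to its C-terminal domain phosphorylated at serine 5 (S5P), serine 2 (S2P) or tyrosine 1 (Y1P). For each antibody there were 2 libraries of irradiated cells, given 10 Gy of ionizing radiation (IR), and 2 libraries of nonirradiated cells. The labels give 10 min for the treatment, whereas the methods give 30 min between IR and collection. The study calls its mNET-seq replicates biological and mentions a technical replicate as well, but the labels give only a batch and a replicate number and no source says which of these marks separate cultures, so every p-value below refers to library-to-library spread, part of which may be technical.

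HSP70 proteins bind exposed hydrophobic stretches of unfolded clients and release them in an ATP cycle. J proteins such as DNAJB1 start that cycle, and nucleotide exchange factors such as HSPH1 and BAG3 reset it. HSP90 acts later, on clients that are close to their native fold, and HSPD1 with its lid HSPE1 folds proteins inside mitochondria. Under heat or proteotoxic stress the transcription factor HSF1 binds heat shock elements, inverted repeats of a short GAA unit, in the promoters of most of these genes and releases paused Pol II into them, which makes them a classic model of rapid transcriptional induction.

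Library totals ranged from 16220773 to 33144659 counts. Values are given as CPM, counts scaled to a common library size after TMM adjustment, whose factor was lowest, at 0.835, in the nonirradiated Y1P library of replicate 2. Host genes of small nucleolar RNAs (snoRNAs), HSPA8 left out, took 3.52% to 18.8% of the counts, the highest share being that of the same library. Mitochondrial genes took 0.212% to 0.350% in irradiated libraries and 0.330% to 0.469% in nonirradiated libraries. The part of these measures in the results was not tested. The summed level of bone and mesenchymal markers was 860 to 1241 CPM, with RUNX2 at a median of 574 CPM but COL1A2 below the count filter, against 9.10 to 15.9 CPM for epithelial, 2.87 to 4.57 CPM for blood, 24.9 to 39.4 CPM for neuronal and 0.0789 to 0.475 CPM for hepatocyte markers.

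The promoters are shown first because heat shock elements are what these genes are known for. In RefSeq (GRCh38.p14) windows of 250 bases before to 50 bases after a start site, all 10 genes matched, with 14 windows, since HSPD1, HSP90AA1 and DNAJB1 have several starts. An element of 2 units was searched as GAANNTTC or TTCNNGAA, which each read the same on both strands, and an element of 3 units as overlapping matches of the 2 patterns that share a unit. The 2-unit element was present in 8 of the 14 windows, against 13.5% of all 35116 windows, and the 3-unit element in 3 of the 14, against 0.490%. TATAAA on the sense strand was present in 2 of the 14, those of HSPA1A and HSPA1B, against 7.33%. A match is a description of the letters and not of a bound site. The stretches below, 5′ to 3′ on the gene's strand, hold the elements in capitals.
HSPA1A, plus strand, chr6:31815427-31815454: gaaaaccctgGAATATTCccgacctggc
HSPA1B, plus strand, chr6:31827623-31827650: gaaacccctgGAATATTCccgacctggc
HSPB1, plus strand, chr7:76302481-76302508: cttaacgagaGAAGGTTCcagatgaggg
DNAJB1, minus strand, chr19:14518427-14518484: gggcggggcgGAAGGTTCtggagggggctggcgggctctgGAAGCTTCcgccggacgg
HSP90AA1, minus strand, chr14:102087095-102087142: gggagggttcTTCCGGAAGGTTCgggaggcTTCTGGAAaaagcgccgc
HSPA8, minus strand, chr11:123062169-123062268: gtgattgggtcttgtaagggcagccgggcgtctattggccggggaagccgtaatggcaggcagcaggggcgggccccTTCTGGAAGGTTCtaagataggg
HSPD1, minus strand, chr2:197500058-197500090: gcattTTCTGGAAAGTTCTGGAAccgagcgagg
The elements of HSPA1A and HSPA1B start 106 and 105 bases before their start sites, and their TATAAA boxes 30 and 29 bases before. Those of HSP90AA1 lie 88, 83 and 68 bases before the start. For HSPA8, 2 overlapping matches lie 55 and 50 bases before the start, and 2 more lie further upstream. The windows of HSPE1, HSPH1 and BAG3 held no match, which says only that these letters are not in those windows. The HSPE1 window begins at chr2:197500129, so the HSPD1 stretch at 197500058 to 197500090 lies outside it, upstream of HSPE1.

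How much of each gene body could be counted differed between the genes. HSPA1A and HSPA1B, near-identical stress-inducible HSP70 genes, lie on chromosome 6 (hg38) at 31815543 to 31817946 and 31827738 to 31830254, both on the plus strand. Of the 2155 stretches of 50 bases in the HSPA1A body, 1766 (81.9%) also occur in the HSPA1B body. In the HSPA1B body 77.9% of such stretches were found elsewhere, and 52.7% of its bases are shared with a same-strand gene, ENSG00000285565. HSPE1, which faces HSPD1 on chromosome 2 (197500140 to 197503449), shares 91.2% of its body with the same-strand readthrough gene HSPE1-MOB4. In the other 7 genes 0.990% to 9.88% of stretches recurred, and no base was shared on the same strand. The authors counted uniquely mapped reads that fell in a single gene body, so the counts of HSPA1A, HSPA1B and HSPE1 come from a minor part of each gene and are uncertain.

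**Figure D1:**
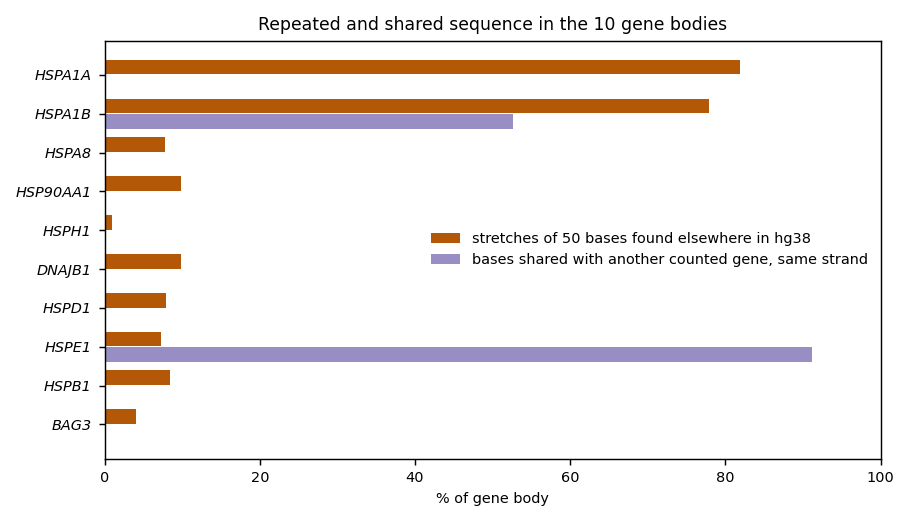
Bars give, for each of the 10 genes, the % of its gene body in stretches of 50 bases found elsewhere in hg38 and the % of its bases shared with another gene on the same strand. HSPA1A (81.9%) and HSPA1B (77.9%) stand out for repeated sequence and HSPE1 (91.2%) for shared bases.

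Levels per length spanned a wide range. HSPA8, the constitutive HSP70 of the cytosol, had a median of 827 CPM per kb of gene body over the 12 libraries. This was the 99.96th percentile of the tested protein-coding genes, whose median was 0.551 CPM per kb. The HSPA8 body also holds snoRNA genes of 85 to 88 bases, and the sequenced RNA was a size-selected small fraction. How much of the HSPA8 level comes from snoRNA reads was not tested. HSPB1, which keeps unfolding proteins soluble, had 5.15 CPM per kb. HSPD1 had 1.89 CPM per kb and HSP90AA1 1.44 CPM per kb, with ranges over the libraries (1.38 to 2.43 and 1.10 to 1.99) that overlapped. BAG3 (0.965 CPM per kb), HSPH1 (0.810) and DNAJB1 (0.608) came next, the range of HSPH1 overlapping the other two, whereas the lowest BAG3 library (0.842) lay above the highest DNAJB1 library (0.747). The medians of HSPA1A (0.439 CPM per kb) and HSPE1 (0.343) lay below the protein-coding median, and their ranges overlapped. HSP90AA1 and DNAJB1 depend most on the annotation used: their counted spans reach 58958 and 45623 bp through distant upstream starts, against 6303 and 3629 bp for the canonical transcripts, and divided by the canonical spans their medians were 13.4 and 7.62 CPM per kb. By that measure HSPB1 had 4.52, HSPD1 4.28 and BAG3 0.957 CPM per kb. The order given above, with BAG3 above DNAJB1, therefore holds for the counted spans only.

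**Figure D2:**
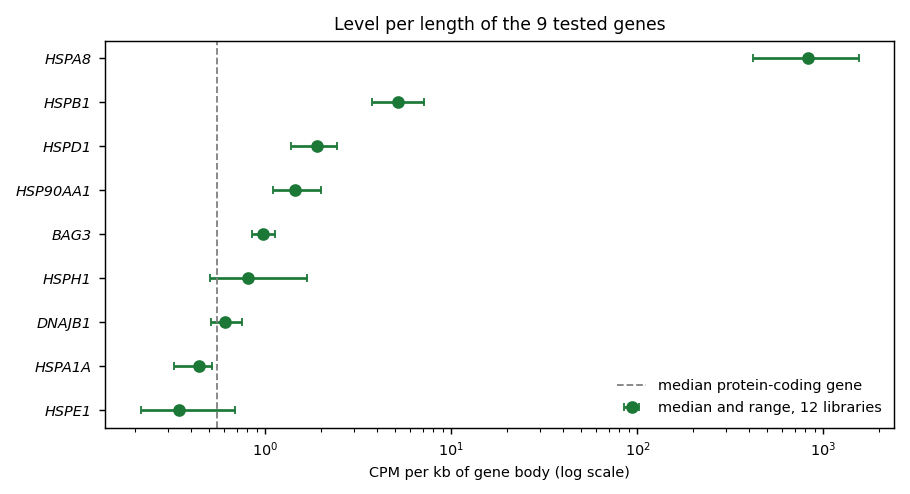
Points are the median CPM per kb of gene body over 12 libraries and bars the lowest to the highest library, on a log axis, for the 9 tested genes. The dashed line is the median tested protein-coding gene (0.551 CPM per kb), and HSPA8 (827 CPM per kb) lies far above the other 8 genes. How much of the HSPA8 level comes from reads of snoRNAs inside its body was not tested.

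HSPA1B lay below the count filter and was not tested with the other 9 genes. It had 30 counts in all: 3 and 9 in irradiated S5P libraries against 0 and 3 in nonirradiated S5P libraries, 2 and 1 against 0 and 1 with S2P, and 3 and 2 against 0 and 6 with Y1P. A count of 0 allows up to 3 counts, which is 0.0829 to 0.178 CPM depending on the library. A difference in HSPA1B of about that size was therefore not detectable at this depth. This floor covers counting error only.

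Upon IR, HSPA8 was lower with Y1P, and the other tested heat shock genes did not pass the test with any antibody. This contrast is not firm, since over 12 other ways of processing the data HSPA8 passed with Y1P in 7 and HSPH1 in 6. A gene was called at a Benjamini-Hochberg adjusted p under 0.05, over all 21246 genes, in edgeR's quasi-likelihood test, with a log2 fold change (log2FC) of irradiated over nonirradiated cells beyond 0.1 either way. With S5P, 0 of the 9 genes were called (0.0518% of all genes were). With S2P, 0 of 9 were called (0.0988% of all genes). With Y1P, 1 of 9 was called, HSPA8, and it was lower (8.66% of all genes were called, 4.28% lower and 4.38% higher). At an unadjusted p under 0.05, the genes were HSPA8, HSPH1 and DNAJB1 with S5P, HSPA8, HSPH1 and HSPD1 with S2P, and HSPA8, HSPH1, HSPD1 and HSPE1 with Y1P. Of all 21246 genes, 2469 had such a p with S5P, 3761 with S2P and 6124 with Y1P. The median log2FC of the 9 genes was -0.03 with S5P, 0.07 with S2P and 0.09 with Y1P, beside -0.0021, 0.02 and 0.02 over all genes.

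**Figure D3:**
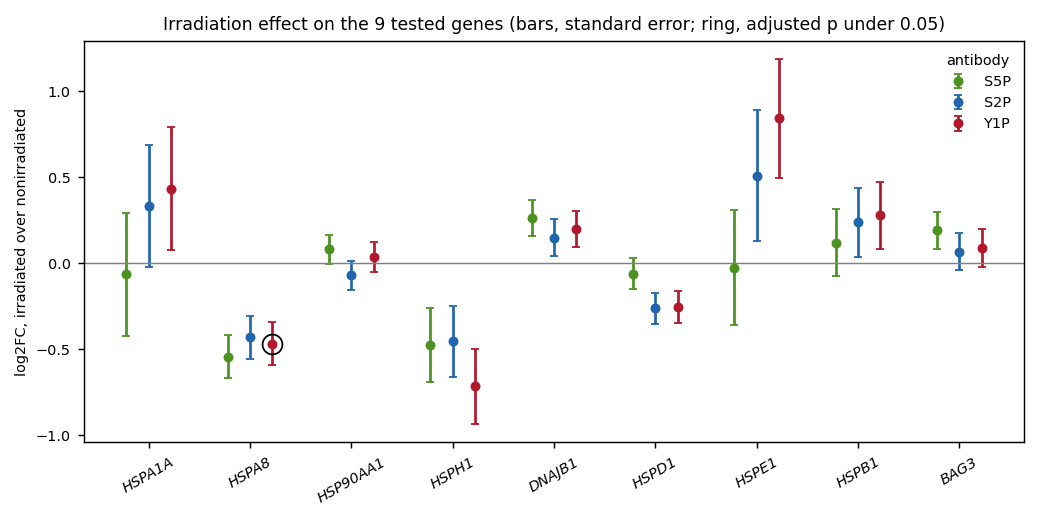
Points are the log2FC of irradiated over nonirradiated cells for the 9 tested genes with each antibody, and bars the standard error. The ring marks the call, HSPA8 with Y1P (-0.47), and the largest change on this scale, HSPE1 with Y1P (0.84), has a wide error.

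HSPA8, whose protein refolds and transports clients in unstressed cells, had 3025 and 4669 CPM in irradiated S5P libraries (replicates 1 and 2), against 4502 and 6659 CPM in nonirradiated S5P libraries. With S2P it had 2311 and 4083 CPM in irradiated cells, against 3454 and 4960 CPM in nonirradiated cells. With Y1P it had 4030 and 5451 CPM in irradiated cells, against 4915 and 8550 CPM in nonirradiated cells. In each of these 6 replicate pairs the irradiated library was the lower, but the groups overlapped with every antibody, because replicate 2 was higher than replicate 1 throughout. The log2FC was -0.54 ± 0.13 (SE, n = 2 a group) with S5P (edgeR adjusted p = 0.190), -0.43 ± 0.13 for the S2P libraries (adjusted p = 0.155) and -0.47 ± 0.13 with Y1P (adjusted p = 0.0398). The size of the Y1P value rests on replicate 2: without it, with 1 library left a group, the log2FC was -0.25. A fit with 1 library a group cannot decide whether the call holds. Without the replicate block the adjusted p was 0.432. S2P replicate 1, S5P replicate 1 and S5P replicate 2 are not compared in the Y1P contrast but enter the filter, scaling and shared spread. Leaving out any 1 of these also ended the call, whereas leaving out Y1P replicate 1 or 2 brought HSPA8 past the threshold with S5P and with S2P.

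HSPA8 is also the host gene of snoRNAs of the SNORD14 family, and these lie inside its counted body. Their sequences are shown because the counts of the HSPA8 body include any read from these positions that passed the authors' filters. No row was used for them here. The capitals mark the box C motif TGATGA near the 5′ end and the box D motif CTGA near the 3′ end, which snoRNAs of this class share, and CTGA was not found near the 3′ end of SNORD14D.
SNORD14E, minus strand, chr11:123058077-123058161: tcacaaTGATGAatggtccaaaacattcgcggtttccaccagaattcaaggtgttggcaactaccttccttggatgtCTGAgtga
SNORD14D, minus strand, chr11:123058909-123058995: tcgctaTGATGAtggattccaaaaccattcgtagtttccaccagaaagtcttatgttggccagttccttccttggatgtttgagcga
SNORD14C, minus strand, chr11:123059335-123059422: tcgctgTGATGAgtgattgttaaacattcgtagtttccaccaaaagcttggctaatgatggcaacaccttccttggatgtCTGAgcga
The summed share of 19 other snoRNA host genes was 6.84% and 11.5% in irradiated against 6.80% and 11.3% in nonirradiated S5P libraries. It was 3.52% and 8.26% against 5.79% and 10.6% with S2P, and 9.83% and 12.1% against 7.45% and 18.8% with Y1P. Like HSPA8, these host genes took more of each replicate 2 library than of the replicate 1 library of its group. Over the 18 of them that were tested, the median log2FC upon IR was -0.02 with S5P, -0.40 with S2P and -0.04 with Y1P, with SNHG5 the only call (0.83 with Y1P, adjusted p = 0.0213). The part of snoRNA reads in the HSPA8 result was not tested.

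HSPH1, the HSP110 exchange factor of HSP70, had 17.6 and 20.2 CPM in irradiated S5P libraries, against 17.7 and 37.2 CPM in nonirradiated S5P libraries. With S2P it had 23.9 and 24.3 CPM in irradiated cells, against 24.03 and 45.7 CPM in nonirradiated cells. With Y1P it had 13.8 and 13.7 CPM in irradiated cells, against 19.1 and 26.7 CPM in nonirradiated cells. The nonirradiated library of replicate 2 was the highest with every antibody, and the groups stood apart with Y1P alone (22.4% of all genes were lower without overlap there). The log2FC was -0.48 ± 0.21 with S5P (edgeR adjusted p = 0.418), -0.45 ± 0.21 for the S2P libraries (adjusted p = 0.272) and -0.72 ± 0.22 with Y1P (adjusted p = 0.0561). Without replicate 2 of the antibody concerned, it was -0.032 with S5P, -0.0078 with S2P and -0.43 with Y1P, so replicate 2 set the size of the difference. Leaving out any replicate of S2P or S5P brought the Y1P value past the threshold (adjusted p = 0.00026 to 0.0391).

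HSP90AA1, the stress-inducible cytosolic HSP90, had 66.7 and 99.2 CPM in irradiated S5P libraries, against 65.5 and 90.6 CPM in nonirradiated S5P libraries. It had 91.5 and 108 CPM against 93.8 and 117 CPM with S2P, and 64.7 and 78.3 CPM against 64.8 and 74.5 CPM with Y1P, irradiated libraries given first. The 2 replicates differed more from each other than irradiated and nonirradiated cells did, and the groups overlapped with every antibody. Its log2FC was 0.08 ± 0.09 with S5P, -0.07 ± 0.08 with S2P and 0.04 ± 0.09 with Y1P, a sign that turned with Y1P under relative log expression scaling and with S2P under library totals alone.

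DNAJB1, the J protein that delivers clients to HSP70, had 28.8 and 33.1 CPM in irradiated S5P libraries, against 24.3 and 27.3 CPM in nonirradiated S5P libraries. With S2P it had 26.3 and 30.1 CPM in irradiated cells, against 23.03 and 27.97 CPM in nonirradiated cells. With Y1P it had 26.5 and 33.9 CPM in irradiated cells, against 24.3 and 28.1 CPM in nonirradiated cells. The irradiated library was the higher in each of the 6 replicate pairs, and the groups stood apart with S5P alone (21.6% of all genes were higher without overlap there). The log2FC was small, 0.26 ± 0.11 with S5P (edgeR adjusted p = 0.376), 0.15 ± 0.11 for the S2P libraries (adjusted p = 0.459) and 0.20 ± 0.11 with Y1P (adjusted p = 0.232).

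BAG3, which links HSP70 to selective autophagy, had 27.3 and 29.7 CPM in irradiated S5P libraries, against 24.9 and 25.0 CPM in nonirradiated S5P libraries. With S2P it had 25.4 and 26.5 CPM in irradiated cells, against 24.3 and 25.2 CPM in nonirradiated cells. With Y1P it had 25.1 and 27.5 CPM in irradiated cells, against 22.1 and 27.6 CPM in nonirradiated cells. BAG3 varied least of the 9 genes over the libraries, from 22.1 to 29.7 CPM. The irradiated libraries were higher without overlap with S5P and S2P (22.8% of all genes with S2P), but its log2FC was only 0.19 ± 0.11, 0.07 ± 0.11 and 0.09 ± 0.11 with S5P, S2P and Y1P, and adjusted p was 0.497, 0.766 and 0.621.

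HSPD1, the barrel of the mitochondrial chaperonin, had 44.2 and 58.6 CPM in irradiated S5P libraries, against 48.1 and 58.6 CPM in nonirradiated S5P libraries. With S2P it had 54.7 and 61.1 CPM in irradiated cells, against 66.1 and 72.8 CPM in nonirradiated cells. With Y1P it had 41.2 and 50.1 CPM in irradiated cells, against 49.4 and 59.6 CPM in nonirradiated cells. The irradiated libraries were lower without overlap with S2P alone (18.8% of all genes there). Both replicate pairs gave nearly the same difference with S2P, -0.27 and -0.25 in log2, and with Y1P, -0.26 and -0.25. The fitted log2FC was -0.06 ± 0.09 with S5P (edgeR adjusted p = 0.819), -0.26 ± 0.09 for the S2P libraries (adjusted p = 0.186) and -0.26 ± 0.09 with Y1P (adjusted p = 0.0880).

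HSPE1, the lid of that chaperonin, is read from the opposite strand of the same locus. It had 27 and 30 counts in irradiated S5P libraries, against 24 and 24 in nonirradiated S5P libraries, 36 and 15 against 14 and 13 with S2P, and 24 and 45 against 19 and 16 with Y1P. In CPM it was 1.46 and 1.18 against 1.37 and 1.31 with S5P, 0.995 and 0.892 against 0.666 and 0.662 with S2P, and 1.14 and 2.12 against 0.833 and 0.919 with Y1P. The irradiated libraries were higher without overlap with S2P and Y1P (26.4% of all genes with Y1P), and the irradiated Y1P library of replicate 2 lay far above the rest. The log2FC was -0.03 ± 0.33 with S5P (edgeR adjusted p = 0.984), 0.51 ± 0.38 for the S2P libraries (adjusted p = 0.484) and 0.84 ± 0.35 with Y1P (adjusted p = 0.127), so the 2 partners HSPD1 and HSPE1 had values of opposite sign with S2P and Y1P, neither of which passed the test. The size of the HSPE1 value with Y1P depended on the libraries used: it was 0.49 once Y1P replicate 2 was left out, 1.18 with Y1P replicate 1 left out instead, 1.57 in batch 1 alone and 0.36 in batch 2 alone.

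HSPB1, a small heat shock protein, had 10.1 and 7.14 CPM in irradiated S5P libraries, against 8.15 and 7.52 CPM in nonirradiated S5P libraries. With S2P it had 8.18 and 5.47 CPM in irradiated cells, against 5.33 and 6.37 CPM in nonirradiated cells. With Y1P it had 8.88 and 7.68 CPM in irradiated cells, against 6.66 and 7.01 CPM in nonirradiated cells. The irradiated libraries were higher without overlap with Y1P alone, and the replicate pairs were split with S5P and S2P. The log2FC was 0.12 ± 0.19, 0.24 ± 0.20 and 0.28 ± 0.20 with S5P, S2P and Y1P (edgeR adjusted p = 0.832, 0.541 and 0.365), and each sign turned once the trend with gene length was removed.

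HSPA1A, the stress-inducible HSP70, had 15 to 35 counts a library. It had 0.974 and 0.947 CPM in irradiated S5P libraries, against 0.968 and 1.04 CPM in nonirradiated S5P libraries. It had 0.968 and 1.13 CPM against 0.714 and 0.968 CPM with S2P, and 1.14 and 1.08 CPM against 0.789 and 0.861 CPM with Y1P. The Y1P groups did not overlap. The log2FC was -0.06 ± 0.36, 0.33 ± 0.35 and 0.43 ± 0.36 with S5P, S2P and Y1P, and the adjusted p was 0.957, 0.634 and 0.447 in edgeR's test. At 81.9% repeated sequence and this count, a change of the size of the standard error was not detectable.

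**Figure D4:**
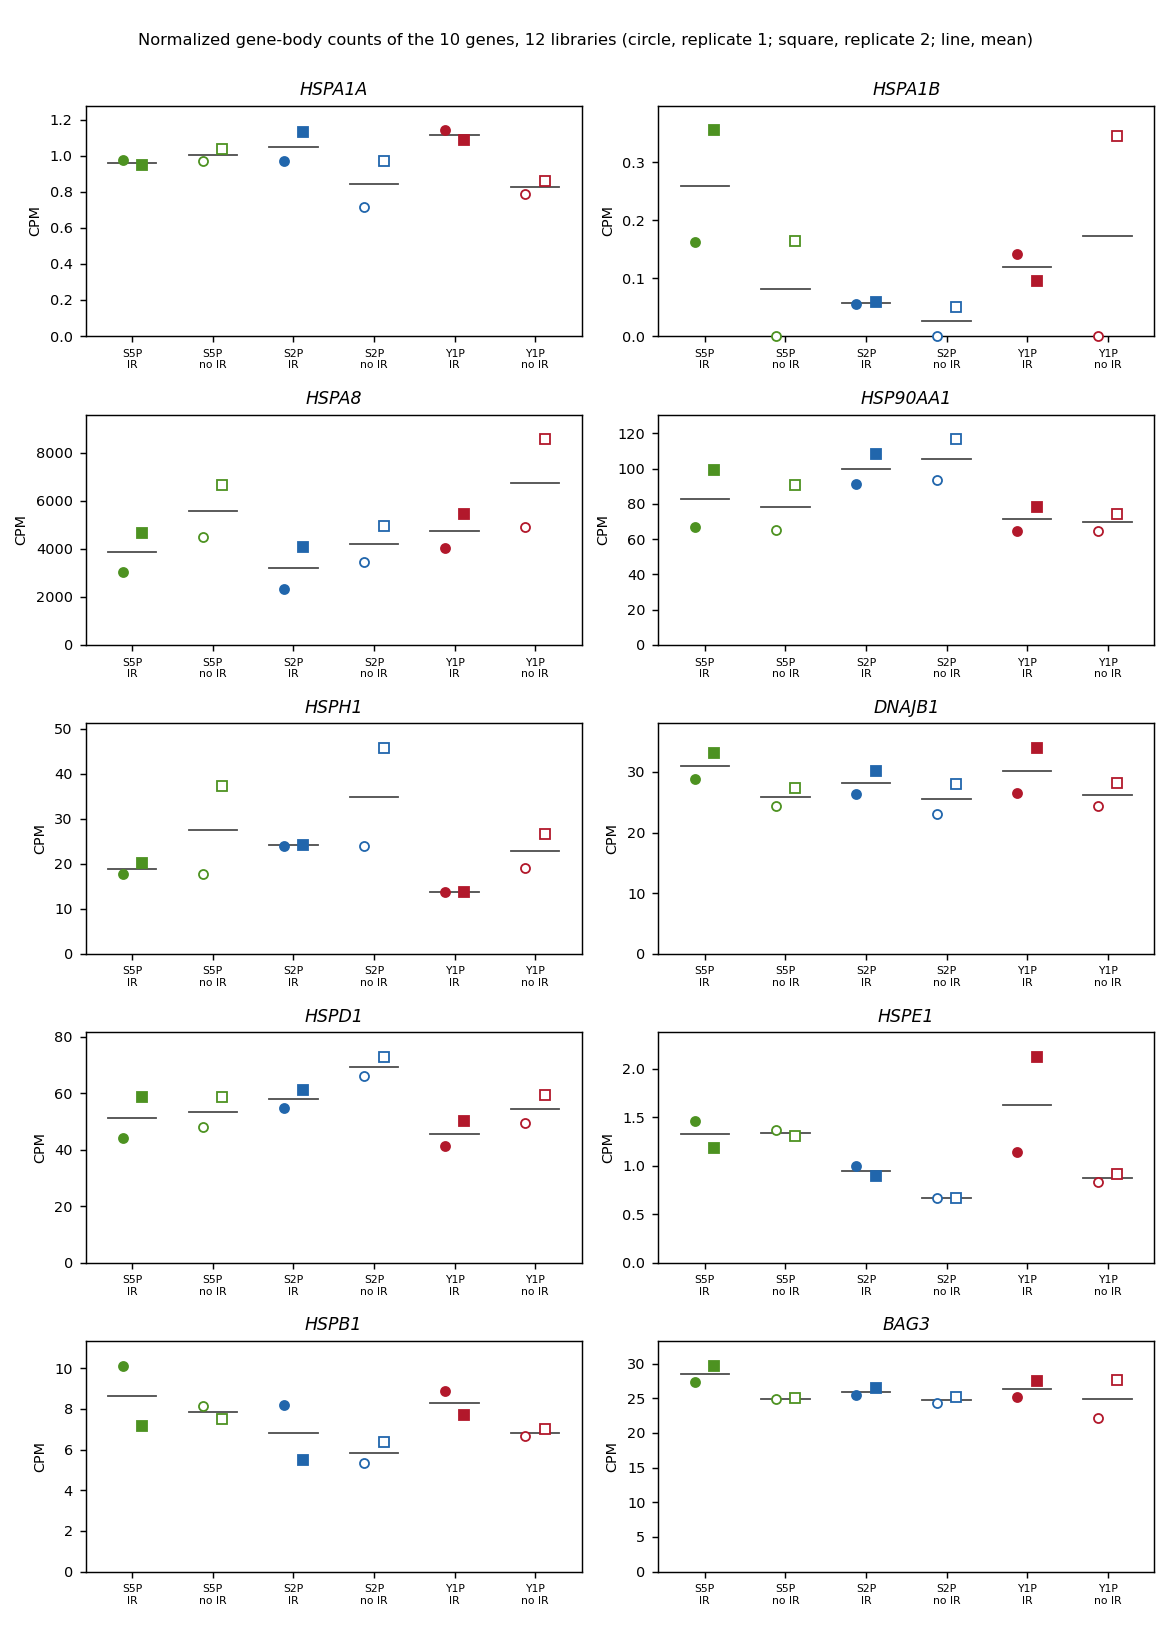
Each panel plots the CPM of 1 gene in the 12 libraries, by antibody, with irradiated cells (filled) left of nonirradiated cells (open), replicate 1 as a circle, replicate 2 as a square and the group mean as a line. HSPH1 shows the raised nonirradiated replicate 2 with every antibody (37.2, 45.7 and 26.7 CPM with S5P, S2P and Y1P), and BAG3 the narrowest spread.

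Counted over the 9 genes, the groups stood apart for 0 lower and 2 higher genes with S5P (19.3% and 21.6% of all genes did so), 1 lower and 2 higher with S2P (18.8% and 22.8%), and 1 lower and 3 higher with Y1P (22.4% and 26.4%). Both replicate pairs ran the same way for 3 lower and 3 higher genes with S5P (31.8% and 31.7% of all genes did so), for 4 lower and 4 higher with S2P (30.6% and 33.5%), and for 3 lower and 4 higher with Y1P (32.9% and 35.2%). Whether either count sets the 9 genes apart from the background was not tested.

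Whether the IR effect differed between antibodies was tested with interaction terms in the same fit. No heat shock gene passed, 0 of 9 in each of the 3 terms. Over all genes 0.00471% passed for S5P against S2P, and 0.0% for S5P against Y1P and for S2P against Y1P. An unadjusted p under 0.05 was reached by 0 of 9. Of all 21246 genes, 921 reached it for S5P against S2P, 1569 for S5P against Y1P and 661 for S2P against Y1P. For HSPA8 the difference of log2FC was -0.11 ± 0.18 for S5P minus S2P, -0.08 ± 0.18 for S5P minus Y1P and 0.04 ± 0.18 for S2P minus Y1P. The largest difference was that of HSPE1, -0.87 ± 0.48 for S5P minus Y1P (edgeR adjusted p = 0.679). The HSPA8 call with Y1P is therefore not shown to differ from its values with S5P or S2P.

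The antibodies themselves captured several of these genes unequally. None of the 9 genes passed a log2FC beyond 1, which 3.88% of all genes did for S2P over Y1P in irradiated cells and 1.09% in nonirradiated cells. For S5P over S2P and S5P over Y1P these shares were 0.0847% and 0.264% in irradiated cells, and 0.0% for both in nonirradiated cells. At an adjusted p under 0.05 and any fold, 4 of 9 passed for S2P over Y1P in irradiated cells (24.4% of all genes) and 3 of 9 in nonirradiated cells (8.47%). HSP90AA1 was higher with S2P by a log2FC of 0.49 ± 0.09 in irradiated cells (edgeR adjusted p = 0.00074) and of 0.59 ± 0.09 in nonirradiated cells (adjusted p = 0.0016). Its lowest S2P library, at 91.5 CPM, lay above its highest Y1P library, at 78.3 CPM. HSPD1 was higher with S2P by 0.35 ± 0.09 in irradiated cells (adjusted p = 0.0071) and by 0.36 ± 0.09 in nonirradiated cells (adjusted p = 0.0174). HSPH1 was higher with S2P by 0.84 ± 0.19 in irradiated cells (adjusted p = 0.0034), where 23.9 and 24.3 CPM stood against 13.8 and 13.7 CPM, while in nonirradiated cells the value was 0.58 ± 0.18 (adjusted p = 0.0538). HSPA8 was the only gene to pass that was lower with S2P, with a log2FC of -0.61 ± 0.12 in irradiated cells (adjusted p = 0.0010) and of -0.65 ± 0.12 in nonirradiated cells (adjusted p = 0.0035). The other snoRNA host genes also took a smaller share of counts with S2P than with Y1P. These shares were 3.52% and 8.26% against 9.83% and 12.1% in irradiated cells, and 5.79% and 10.6% against 7.45% and 18.8% in nonirradiated cells. The part of snoRNA reads in the HSPA8 difference was not tested. DNAJB1 and BAG3 lay within 0.10 of 0 in both states. Without the replicate block 0 of the 9 genes had an adjusted p under 0.05 for S2P over Y1P in either state (0.136 to 0.390 for the genes named above), and without S2P replicate 1 0 of 9 did in irradiated cells (0.0528 for HSP90AA1, 0.0932 for HSPH1, 0.166 for HSPA8 and 0.197 for HSPD1). In irradiated cells HSPD1 and HSPH1 also missed the threshold without Y1P replicate 2 (adjusted p = 0.0708 and 0.159), as did HSPD1 without Y1P replicate 1 (0.0535). In nonirradiated cells HSPD1 missed it without either Y1P replicate (0.116 and 0.0925 without replicate 1 and 2), and HSPA8 and HSPD1 without S2P replicate 1 (0.124 and 0.305), while HSP90AA1 passed there with any 1 replicate left out.

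For S5P over S2P and S5P over Y1P, 0 of the 9 genes had an adjusted p under 0.05 in either state. In nonirradiated cells 0.0% of all genes did, and in irradiated cells 0.231% and 2.88%. The S5P levels of HSP90AA1, HSPD1 and HSPH1 lay nearer to their Y1P levels in nonirradiated cells, with log2FC of 0.15, -0.03 and 0.23 for S5P over Y1P against -0.44, -0.39 and -0.35 for S5P over S2P. In irradiated cells this order did not hold for all of them, with 0.20, 0.17 and 0.45 for S5P over Y1P against -0.29, -0.18 and -0.39 for S5P over S2P. At an unadjusted p under 0.05 for S5P over S2P in nonirradiated cells were HSP90AA1, HSPD1, HSPA8, HSPB1 and HSPE1, beside 3869 of all 21246 genes. Of the named genes HSPE1 had the largest value (1.00 ± 0.39, edgeR adjusted p = 0.178), on 13 to 24 counts a library.

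**Figure D5:**
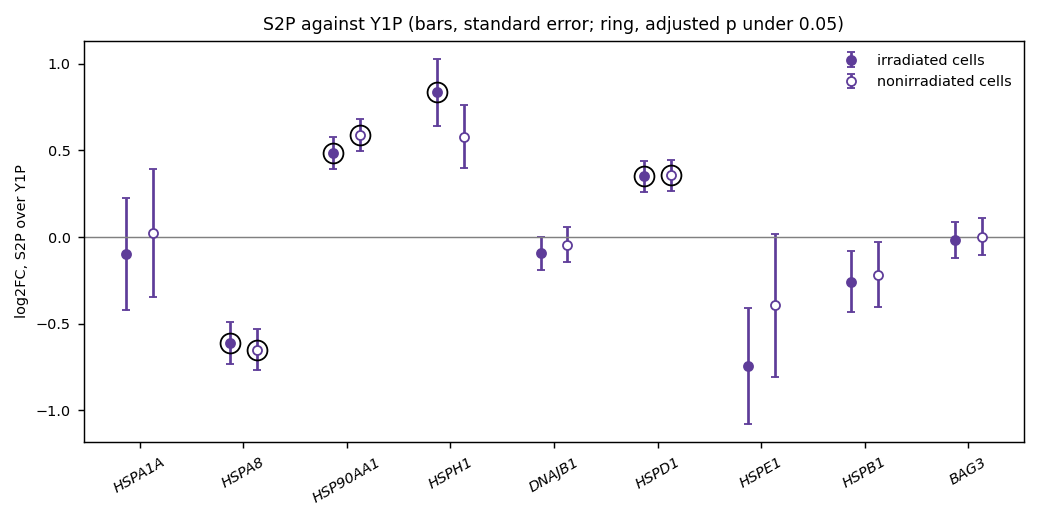
Points are the log2FC of S2P over Y1P for the 9 tested genes in irradiated (filled) and nonirradiated (open) cells, bars the standard error and rings an adjusted p under 0.05. HSP90AA1 and HSPD1 lie above 0 and HSPA8 below 0 in both states, and HSPH1 carries a ring only in irradiated cells (0.84), while its difference of IR effects for S2P minus Y1P, 0.26 ± 0.30, did not pass the test.

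The rest of the chaperone system was read from lists of 75 other genes, of which 70 could be tested. HSPA6, the strictly heat-induced HSP70, and HSPB2 had 0 counts, and HSPA2, HSPA4L and HSPB3 were too low. With S5P and S2P, 0 of 70 were called by edgeR upon IR (0.0518% and 0.0988% of all genes were). At an unadjusted p under 0.05 were 8 and 14 of the 70, beside 2469 and 3761 of all 21246 genes. With Y1P, 7 were lower and 3 higher (8.66% of all genes were called in either direction). The median log2FC of the 70 genes was -0.0015 with S5P, -0.05 with S2P and -0.06 with Y1P.

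Among HSP70 and HSP110 genes 1 of 8 tested was called with Y1P, HSPA4, an HSP110 protein like HSPH1. HSPA4 had 116 and 110 CPM in irradiated against 134 and 162 CPM in nonirradiated Y1P libraries (log2FC -0.38, edgeR adjusted p = 0.0401). HSPA9, the mitochondrial HSP70, was among the smallest p-values with S5P (-0.42, adjusted p = 0.335) and S2P (-0.54, adjusted p = 0.1497) without passing. None of the 3 HSP90 family genes was called. Of 17 J proteins, DNAJC2, a ribosome-associated one, and DNAJC3, of the endoplasmic reticulum, fell (both -0.35), while DNAJB4 (0.83) and DNAJB5 (0.53), which belong to the family of DNAJB1, rose. DNAJB5 had 36.7 and 33.3 CPM in irradiated Y1P libraries against 24.1 and 24.3 CPM in nonirradiated ones, without overlap, whereas the DNAJB4 groups overlapped, at 3.75 and 9.47 CPM against 2.41 and 4.82 CPM, and DNAJB1 at 0.20 did not pass.

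Of the 8 subunits of the cytosolic chaperonin CCT, CCT3 was called with Y1P (-0.53, edgeR adjusted p = 0.0376), with 42.3 and 46.8 CPM in irradiated against 51.0 and 81.1 CPM in nonirradiated libraries. TCP1, another subunit, had -0.57 with S2P (adjusted p = 0.151). Of 20 cochaperones, 3 partners of HSP90 were lower with Y1P: CHORDC1 (-0.76), PTGES3 (-0.46) and SUGT1 (-0.38). CHORDC1 had 27.2 and 27.0 CPM in irradiated against 35.3 and 58.9 CPM in nonirradiated Y1P libraries, and its nonirradiated replicate 2 was also highest with S5P (71.6 CPM) and S2P (80.0 CPM), as for HSPH1. None of the 4 heat shock factors and regulators and none of the 4 tested small heat shock proteins was called. Of 6 other heat-inducible genes, UBB, a polyubiquitin gene, rose with Y1P (0.54, adjusted p = 0.0357), at 13.1 and 17.2 CPM in irradiated against 9.42 and 11.4 CPM in nonirradiated libraries, and HMOX1, which degrades heme, had 0.52 with S5P and 0.63 with S2P, neither past the test. With a Y1P replicate left out, each Y1P group holds 1 library, so only the log2FC is given for these genes. The 7 lower genes lay nearer to 0 without Y1P replicate 2 (-0.17 for HSPA4 and PTGES3, -0.21 for SUGT1 and DNAJC3, -0.23 for CCT3, -0.24 for DNAJC2 and -0.34 for CHORDC1) and further from 0 without Y1P replicate 1 (-0.45 for DNAJC2 to -1.15 for CHORDC1), whereas UBB (0.51), DNAJB5 (0.65) and DNAJB4 (0.67) without replicate 2 were nearer to their values over both replicates. The S2P value of TCP1 was -0.15 without S2P replicate 1 and -0.998 without S2P replicate 2. Without the replicate block 0 of the 70 genes were called with Y1P, beside 2 of all 21246 genes.

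The 9 genes did not vary together over the libraries. Among their 36 pairs the Pearson correlation of log2(CPM + 0.5) over the 12 libraries, which come from the same cell line and differ in antibody, irradiation and depth, was highest for HSP90AA1 with HSPD1 (0.87), DNAJB1 with BAG3 (0.82) and HSPH1 with HSPD1 (0.82). It was lowest for HSPD1 with HSPB1 (-0.78). HSPA8 had values between -0.21 and 0.25 with the other 8 genes. The protein-coding genes most like the mean profile of the 9 were S100A2 (0.97), FANCE (0.93), ACADS (0.93), S100A10 (0.92) and SDF2L1 (0.92).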

How the data were processed

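The authors deposited raw counts of reads per gene body (200 bp downstream of the TSS to the TES) for 24 samples, called runs here, with each replicate number in a batch 1 and a batch 2 of the labels. Per the methods and the submitters' processing notes, adapters were trimmed (cutadapt 1.8.3 in those notes), reads were aligned to hg38 with STAR and filtered with SAMtools, and featureCounts counted uniquely mapped reads on the annotated strand that overlapped a single gene body. Of 55399 entries, 1022 empty repeats were dropped. Run totals were 7515849 to 17949336 counts. Runs of the same replicate number differed by little more than sampling noise (chi-square per degree of freedom 1.06 to 1.10 in 12 pairs, against 10.0 to 70.2 between replicate numbers) and were summed to 12 libraries. Names come from GENCODE 44, and 120 IDs with 0.0116% of counts were not matched.

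The 12 libraries were fitted with edgeR 4.0.16 (R 4.3.3; filterByExpr, TMM, quasi-likelihood test) with a block for each replicate number inside an antibody (3 residual and 11.0 prior degrees of freedom). Antibodies were compared in a fit with 1 shared replicate block. The block follows the methods, which place technical repeats in the same batch. Deviations of same-numbered libraries correlated at 0.168 to 0.392 over 15 pairs of groups. Within an antibody, where the block of the main fit applies, the 3 values were 0.168 to 0.282, the lowest being that of Y1P. The labels do not say what the number marks. DESeq2 1.42.0 and other scalings, filters, blocks and each batch of the labels alone were alternatives. The code was checked on counts simulated from the fit's own model, which does not show how well that model holds for these libraries. All 10 genes are named; other chaperone genes were named if called with any antibody or among the 4 smallest p-values with an antibody. The genes and lists were chosen with earlier results of these data known. Promoter sequences come from RefSeq (GRCh38.p14), and snoRNA sequences and repeats of 50 bases from hg38.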

Additional observations from a re-analysis of the deposited data

How the results depend on the processing

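With Y1P, the call of HSPA8 as the only 1 of 9 genes upon IR became 2 under relative log expression factors, no filter on low counts, 1 replicate block shared by the antibodies, or batch 1 of the labels alone, 3 in DESeq2 on the 24 runs, and 0 under library totals alone, the stricter filter (50 counts in every library), no replicate block, or batch 2 alone; leaving out a replicate gave 0 to 2. HSPH1 was called in each of these settings with 2 or 3 genes, and in separate fits per antibody HSPH1 was called (adjusted p = 0.0037) in place of HSPA8 (0.374), so that the count stayed at 1. HSPA8 was -0.27 under library totals alone (adjusted p = 0.0645), a scaling that moved the median of all genes to 0.21 with Y1P and 0.19 with S2P, and split all Y1P calls into 49 lower and 1188 higher genes, against 909 and 931 under TMM and 1320 and 946 under relative log expression factors. With S2P, 0 of 9 became 2 without a filter, 1 in DESeq2 on the libraries and 2 on the 24 runs, and 0 to 1 with a replicate left out. With S5P, 0 of 9 became 1 without a filter, 1 in DESeq2 on the libraries, 2 on the 24 runs and 2 in separate fits, and 0 to 1 with a replicate left out. Without the replicate block 2 of all genes were called with Y1P and 0 with S2P and S5P. Beyond a log2FC of 1 for S2P over Y1P, 357 of all genes passed in irradiated and 0 in nonirradiated cells. With the block these were 825 and 231. The count over all tested genes moved with the other settings too. With Y1P it was 2794 of 40079 without a filter and 3379 of 21246 with the shared block. It was 6813 of 18416 in DESeq2 on the 24 runs and 1005 of 20191 in separate fits. With the stricter filter it was 848 of 12463, and in batch 1 and batch 2 alone 1009 of 18353 and 881 of 18901.

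Of the 70 other chaperone genes, the 10 calls with Y1P became 5 under library totals alone, 2 with the stricter filter, 0 with no replicate block, 36 in DESeq2 on the 24 runs, 1 in batch 2 alone, 6 in separate fits and 6 with the length trend removed, and 0 to 17 with a replicate left out. The 0 calls with S2P became 6 without a filter, 4 with the shared replicate block, 1 in DESeq2 on the libraries, 15 on the 24 runs and 6 in separate fits, and 0 to 6 with a replicate left out. The 0 calls with S5P became 3 without a filter, 14 in DESeq2 on the 24 runs and 5 in separate fits, and 0 to 2 with a replicate left out. For S2P over Y1P in irradiated cells, 0 to 2 genes passed a log2FC beyond 1 with a replicate left out. Over all tested genes, 634 of 21246 were called with Y1P once the length trend was removed. With S2P, 647 of 40079 were called without a filter, 247 of 21246 with the shared block and 61 of 21246 in DESeq2 on the libraries. The 24 runs gave 4305 of 18416 with S2P and separate fits 368 of 19599. With S5P these were 266 of 40079 without a filter, 2929 of 18416 on the 24 runs and 1046 of 19359 in separate fits. The stricter filter tested fewer genes, and DESeq2 on the 24 runs took repeat runs as replicates. The cause of the other shifts was not tested.

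The sign of a log2FC turned in 13 cases. With Y1P these were HSP90AA1 (-0.0014 under relative log expression factors and in DESeq2), HSPB1 (-0.17 with the length trend removed) and BAG3 (-0.024 without Y1P replicate 1). With S2P these were HSP90AA1 (0.10 under library totals) and HSPB1 (-0.032 with the length trend removed, -0.24 to 0.62 with an S2P replicate left out, the lower value without replicate 1). With S5P these were HSPA1A (0.22 in batch 1 alone), HSPE1 (0.020 under library totals, -0.15 to 0.070 with an S5P replicate left out, the higher value without replicate 2) and HSPB1 (-0.22 in batch 1 alone, -0.065 with the length trend removed, -0.081 to 0.29 with an S5P replicate left out, the lower value without replicate 1). The other single-gene values kept their sign: 716 also kept their side of the threshold, 71 moved past it and 85 no longer passed it, and 16 had no adjusted p in DESeq2. Depth limits HSPA1A, HSPA1B and HSPE1, whose libraries held 35, 9 and 45 counts at most.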

Other observations

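Genes with the profile most like a single heat shock gene over the 12 libraries were chosen after their values were seen. For HSPH1 these were FYTTD1 (Pearson correlation 0.99), CHORDC1 (0.97), a cochaperone of HSP90, SNRNP48 (0.97), ZNF45 (0.96) and FAM98A (0.96). For HSP90AA1 they were HSP90B1 (0.98) and HSPA5 (0.96), the HSP90 and the HSP70 of the endoplasmic reticulum. NCOA4 (0.96), MKI67 (0.94) and NDUFAF5 (0.94) came next. HSP90B1 had 110 and 148 CPM in irradiated against 101 and 143 CPM in nonirradiated S5P libraries, 154 and 167 against 140 and 183 CPM with S2P, and 98.5 and 121 against 101 and 107 CPM with Y1P. Like HSP90AA1, it was highest with S2P. For HSPA8 the most similar was NOP56 (0.98), another snoRNA host gene and a component of box C/D snoRNPs, with 1476 and 2093 CPM in irradiated against 1994 and 2551 CPM in nonirradiated S5P libraries, 989 and 1815 against 1507 and 2006 CPM with S2P, and 1923 and 2395 against 2107 and 3279 CPM with Y1P. The irradiated NOP56 library was the lower in each of the 6 replicate pairs, as for HSPA8, and its log2FC did not pass the test with any antibody (-0.36, -0.38 and -0.29 with S5P, S2P and Y1P). The most similar genes to the other members were not in the chaperone lists used here. They were SRSF11 for HSPD1 (0.97), STK19 for DNAJB1 (0.95), TMEM109 for BAG3 (0.94) and C11orf24 for HSPB1 (0.94). For HSPE1 it was ENSG00000260007 (0.97) and for HSPA1A SSNA1 (0.90).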
